A study of Mus musculus with 12 samples.

Results

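Mitochondria keep a genome of their own, a small circle of DNA that encodes 22 tRNAs and 2 rRNAs for the mitochondrial ribosome. The short reads from these RNAs were described here in 12 small RNA libraries of mouse sperm and of TM4 cells. The members were taken from the deposited annotation by name. They are the reads of the 22 mature mitochondrial tRNAs (mt-tRNAs), each split by its place in the tRNA into 3 end classes, which gives 66 mt-tRNA fragments, and the reads of 12S and 16S rRNA. Together these are 68 of the 227 tRNA fragments and rRNA subclasses in the files, next to 153 fragments of nuclear tRNAs. The class tRF5 holds reads that start at the 5′ end of the tRNA. The class tRF3 holds reads that stop at the 3′ end, either at the last encoded base or at the CCA tail. The class other holds all remaining reads, which the annotation assigned to neither end. Where in the tRNA these lie was not given, and a part of them does not match the genome.

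Both strands of mitochondrial DNA are transcribed into long precursors, and tRNAs sit between the rRNA and mRNA genes like punctuation marks. RNase P and RNase Z cut at the 5′ and the 3′ ends of the tRNAs and thereby release the rRNAs and mRNAs as well. The tail CCA, to which the amino acid is attached, is added afterwards by an enzyme. Angiogenin is a secreted ribonuclease of the RNase A family that cuts tRNAs in stressed cells, mostly in the anticodon loop.

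The sperm libraries came from C57BL6/J males that received a control diet (CD, 16% of energy from fat) or a high-fat diet (HFD, 69% by the sample labels) for 7 weeks from 4 weeks of age. The study's methods state a lower fat content for this HFD than its labels do. Each library pooled the sperm of 3 mice, and there were 3 libraries per diet. Sperm were released from the cut epididymis and pelleted, and the protocol describes no step that removes other cells. TM4 is a line derived from mouse Sertoli cells, the somatic cells that nurse germ cells in the testis. It was left untreated (Ctrl), treated with 10 µM Compound C (CC), an inhibitor of the energy sensor AMPK, for 12 h, or made to overexpress angiogenin from a plasmid (Ang OE), with 2 libraries for each condition. No empty vector is named for the Ctrl cells. The labels do not say whether the TM4 replicates were separate cultures, so the p-values for TM4 measure the spread between these samples, which may be technical. The small RNA files hold no mRNA reads, so the overexpressed gene itself could not be checked.

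Clean reads per library ranged from 31710445 to 64038150, and mt-tRNA reads from 68227 to 96423 in sperm and from 126256 to 225683 in TM4 cells. Levels of mt-tRNA reads are given as reads per 1000000 clean reads without rRNA (RPM), and levels of rRNA as reads per 1000000 of all clean reads. rRNA took 16.5% to 32.9% of the clean reads of sperm and 5.92% to 8.58% of those of TM4 cells. CC replicate 2 stood apart from CC replicate 1, with a total mt-tRNA level of 2708 against 4364 RPM. miRNA precursors typical of epithelium, of which 5 of 5 were in the files, summed to 4484 to 5090 RPM in the CD libraries, 4480 to 7580 RPM in the HFD libraries and 0.719 to 1.55 RPM in TM4 cells. The 9 of 9 miRNA precursors typical of testis germ cells summed to 1821 to 4999 RPM in sperm and 550.4 to 1335 RPM in TM4 cells. In libraries made from many cells, fewer cells of a type and less RNA per cell cannot be told apart.

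The sequences of 6 mt-tRNA genes are given because the results turn on them. They were read from the mouse genome build GRCm39 in the direction of the tRNA, with the anticodon in capitals, and each lies in the mt-tRNA gene of that name.
mt-tRNA-Val-TAC (mt-Tv, chrM:1025-1093, + strand): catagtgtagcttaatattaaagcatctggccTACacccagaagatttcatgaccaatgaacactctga
mt-tRNA-Ser-GCT (mt-Ts2, chrM:11613-11671, + strand): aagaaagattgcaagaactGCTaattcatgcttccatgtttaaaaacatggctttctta
mt-tRNA-Trp-TCA (mt-Tw, chrM:4950-5016, + strand): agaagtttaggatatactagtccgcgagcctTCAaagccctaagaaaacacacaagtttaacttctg
mt-tRNA-Lys-TTT (mt-Tk, chrM:7700-7764, + strand): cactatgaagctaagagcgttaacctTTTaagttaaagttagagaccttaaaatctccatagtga
mt-tRNA-Asn-GTT (mt-Tn, chrM:5089-5159, - strand): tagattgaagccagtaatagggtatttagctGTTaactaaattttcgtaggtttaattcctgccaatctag
mt-tRNA-Leu-TAG (mt-Tl2, chrM:11671-11741, + strand): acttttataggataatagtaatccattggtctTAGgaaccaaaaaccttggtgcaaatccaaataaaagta

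The 22 genes are 59 to 75 nt long, and their GC content ranges from 17.1% to 44.9%. Of these, 14 are read in the same direction as the rRNAs (heavy-strand transcript) and 8 in the other (light-strand transcript). mt-tRNA-Ser-GCT is the shortest and is known as the mammalian tRNA that lacks the D arm, so its anticodon lies close to the 5′ end, at positions 20 to 22. The gene of mt-tRNA-Val-TAC fills the gap between the gene of 12S rRNA (mt-Rnr1, chrM:70-1024, 955 nt) and that of 16S rRNA (mt-Rnr2, chrM:1094-2675, 1582 nt). None (0) of the 22 genes is followed by CCA in the genome, so the tail is not encoded next to these genes. An exact copy of the sequence lies elsewhere in the nuclear genome for 9 of the 22, among them Trp-TCA, Lys-TTT and Asn-GTT, and reads from such a copy could not be told apart from mitochondrial reads.

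mt-tRNA reads were abundant in both sample types but differed in their end classes. In sperm most of them were of the class other, whereas in TM4 cells most stopped at the CCA tail. The total mt-tRNA level was 2621, 2878 and 2465 RPM in the CD libraries and 2548, 3280 and 3441 RPM in the HFD libraries. It was 3882 and 3079 RPM in Ctrl, 4364 and 2708 RPM in CC, and 2548 and 2659 RPM in Ang OE. These totals overlap between sperm and TM4 cells, although mitochondrial reads made up 1.46% to 2.61% of all mature tRNA reads in sperm and 5.09% to 13.8% in TM4 cells.

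Reads of the class other were 56.5% to 63.2% of the mt-tRNA reads in sperm and 7.31% to 15.9% in TM4 cells. CCA-ended reads were 8.0% to 12.8% in sperm and 67.7% to 77.5% in TM4 cells. The tRF5 share was 20.2% to 28% in sperm and 10.9% to 16.7% in TM4 cells, and reads that stopped at the last encoded base were 4.62% to 6.82% and 0.327% to 0.846%. For each of the 4 shares, no sperm library overlapped any TM4 library. No test of these shares was made, and the source of the cells and their preparation cannot be told apart.

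**Figure D1:**
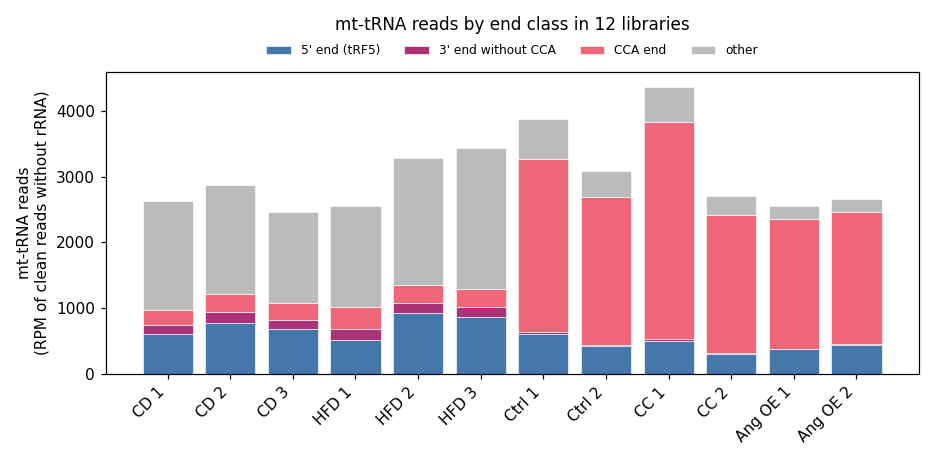
Stacked bars of mt-tRNA reads in RPM of clean reads without rRNA (y axis) in the 12 libraries (x axis). Colours mark reads at the 5′ end, at the 3′ end without CCA, at the CCA end and of the class other. The CCA end takes 1975 to 3304 RPM in the TM4 libraries and 218.7 to 327.0 RPM in the sperm libraries, whose largest part is the class other with 1393 to 2147 RPM.

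A single fragment carried most of the TM4 signal. The CCA-ended reads of mt-tRNA-Val-TAC made up 60.6% (95% Wilson interval 60.4% to 60.8%) of the mt-tRNA reads in Ctrl replicate 1 and 65.3% (65.1% to 65.5%) in Ctrl replicate 2. They were 69.1% and 70.2% in CC, 70.8% and 70.5% in Ang OE, and 3.92% to 5.66% in the 6 sperm libraries. Wilson intervals cover counting error only, and reads without molecular identifiers are not independent molecules. Without mt-tRNA-Val-TAC the CCA-ended share was 20.6% to 31.5% in TM4 cells and 4.89% to 10.2% in sperm, so the sample types remained apart. Without it the total mt-tRNA level was 624.2 to 1124 RPM in TM4 cells and 1832 to 2605 RPM in sperm, which no longer overlapped.

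The 5′ end of mt-tRNA-Ser-GCT was the largest named fragment of the sperm tRF5 class. It made up 17.2%, 19.8% and 20.3% of the mt-tRNA reads in the CD libraries, 13.5%, 21.9% and 18.6% in the HFD libraries and 4.84% to 6.56% in TM4 cells. Of all reads of this short tRNA, 88.7% to 91.0% were tRF5 in sperm and 93.7% to 97.2% in TM4 cells.

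Levels differed by orders of magnitude between mt-tRNAs. Per 10 nt of tRNA, the mean level in sperm was 102 RPM for mt-tRNA-Ser-GCT, 100.1 RPM for Val-TAC, 39.4 RPM for Glu-TTC, 30.5 RPM for Gly-TCC, 30.2 RPM for Trp-TCA and 29.9 RPM for Met-CAT. The library ranges of Ser-GCT and Val-TAC overlap, and both lie above the next 4, whose ranges overlap one another. The lowest was mt-tRNA-Asp-GTC with 0.190 RPM per 10 nt. In TM4 cells the order per 10 nt began with Val-TAC at 347 RPM, then Ser-GCT at 32.0 RPM, Met-CAT at 27.5 RPM, Trp-TCA at 21.1 RPM and Glu-TTC at 10.4 RPM, and Asp-GTC was again the lowest at 0.0762 RPM. These are means over the 3 conditions, and in Ang OE alone Met-CAT (24.8 RPM) stood above Ser-GCT (23.8 RPM) and Ser-TGA (12.2 RPM) above Glu-TTC (8.27 RPM). In TM4 cells the range of Val-TAC lay above all others, and those of Ser-GCT, Met-CAT and Trp-TCA overlapped. Across the 22 mt-tRNAs the log2 mean levels of CD sperm and Ctrl TM4 cells had a Pearson correlation of 0.83 and a Spearman correlation of 0.81, a description over tRNAs that share length, base composition and library.

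**Figure D2:**
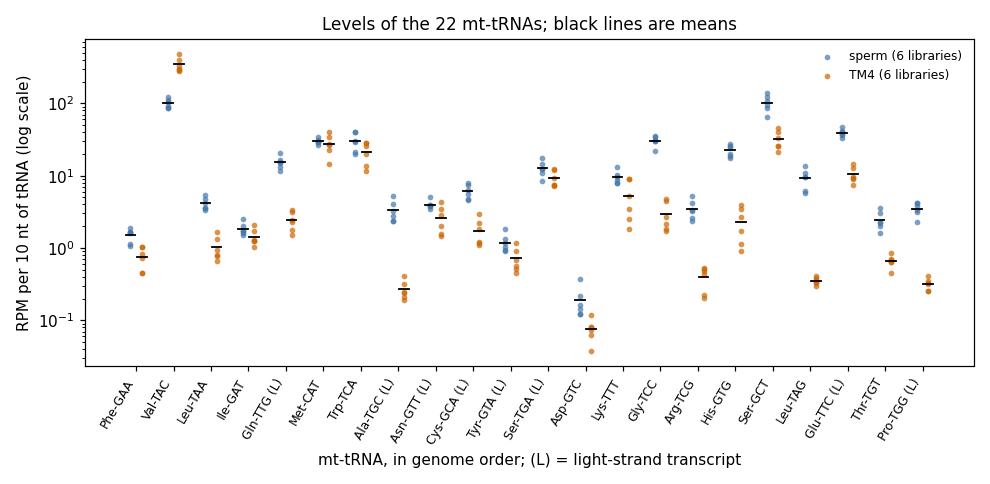
Level of each of the 22 mt-tRNAs in RPM per 10 nt of tRNA (y axis, log scale), in genome order on the x axis, with a point for each of 6 sperm and 6 TM4 libraries and a black line at the mean. mt-tRNA-Val-TAC stands at a mean of 347 in TM4 cells and 100.1 in sperm, and mt-tRNA-Leu-TAG at 0.354 and 9.24.

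The end at which a tRNA was read differed from tRNA to tRNA and between the sample types. mt-tRNA-Val-TAC reads were CCA-ended in 16.1% to 22.1% of cases in sperm and in 85.3% to 93.7% in TM4 cells. The share of CCA-ended reads of mt-tRNA-Trp-TCA was 32.1% to 44.5% in sperm and 89.9% to 93.6% in TM4 cells. mt-tRNA-Asn-GTT had 2.64% to 6.05% CCA-ended reads in sperm and 54.8% to 85.8% in TM4 cells. The initiator and elongator of mitochondrial translation, mt-tRNA-Met-CAT, was instead read from its 5′ end, with a tRF5 share of 32.1% to 49.4% in sperm and 81.2% to 93.3% in TM4 cells. mt-tRNA-Ile-GAT had a tRF5 share of 4.30% to 12.0% in sperm and 57.2% to 91.2% in TM4 cells. Reads of mt-tRNA-Gly-TCC were mostly of the class other in both, with 96.7% to 97.8% in sperm and 59.8% to 82.8% in TM4 cells.

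The comparison of diets addressed whether feeding changes tRNA fragmentation in sperm. No mt-tRNA fragment passed the test between HFD and CD: 0 of 54 tested fragments reached an adjusted p under 0.05 with edgeR's quasi-likelihood test and Benjamini-Hochberg adjustment over all tRNA fragments, where 0% of the 196 fragments did. Leaving out CD replicate 2 gave 2 of 54 higher in HFD, where 25 of all 196 tRNA fragments were higher and 3 lower. With all libraries DESeq2 also called 0, and 12 of the 66 fragments were below the filter of 10 reads in 3 libraries. At an unadjusted p under 0.05 there were 6 of 54, or 11.1%, against 16.8% of all tRNA fragments. The HFD and CD libraries did not overlap for 15 of the 54 fragments, or 27.8%, against 27% of all tRNA fragments, with 14 higher in HFD (26.5% of all) and 1 lower (0.51% of all). Both shares are near the background. The median log2 fold change was 0.35 for mt-tRNA fragments and 0.42 for all tRNA fragments, and with TMM scaling these medians were -0.08 and -0.00, so that the share of mt-tRNA fragments with a positive value went from 94.4% to 37.0%.

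The difference in the total mt-tRNA level, 436 RPM higher in HFD, had an exact 2-sided permutation p of 0.3, where the smallest p that 3 against 3 libraries allow is 0.1. The mitochondrial share of mature tRNA reads was 1.91% in CD and 2.24% in HFD (exact permutation p = 0.5). The end classes gave exact permutation p values of 0.7 for tRF5, 0.8 for 3′ ends without CCA, 0.9 for CCA ends and 0.7 for other, all 0.9 after adjustment over the 4 classes. Light-strand tRNAs took 18.6% to 23.1% of the mt-tRNA reads, with means of 20.1% in CD and 21.2% in HFD (exact permutation p = 0.5). In none of these did the diets separate. The sums of the epithelial miRNA precursors were 4791, 5090 and 4484 RPM in the CD libraries and 4480, 6060 and 7580 RPM in the HFD libraries, and the 4 libraries with the highest sums were those with the highest total mt-tRNA levels, in the same order. Their part in it was not tested.

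mt-tRNA-Trp-TCA gave the clearest separation of diets among the abundant mt-tRNAs. Its reads of the class other stood at 86.0, 117 and 72.0 RPM in CD and at 166, 130 and 179 RPM in HFD, so the lowest HFD library was above the highest CD library. The log2 fold change was 0.79 with a standard error (SE) of 0.32, and edgeR's adjusted p was 0.251. Over the alternatives the value ranged from 0.37 to 1.00, and edgeR's lowest adjusted p, with a library left out, was 0.0467. The CCA-ended reads of the same tRNA were 52.7, 77.1 and 59.3 RPM in CD and 99.1, 67.8 and 86.8 RPM in HFD, which overlap. Taking all its reads, mt-tRNA-Trp-TCA was 1.57-fold as abundant in HFD as in CD, and 21 of the 22 mt-tRNAs had a ratio above 1 (median 1.25), of which 7 did not overlap between diets. Among nuclear tRNAs, 45 of 51 had a ratio above 1 (median 1.45) and 15 were higher in HFD without overlap, so that 30.1% of all 73 tRNAs were, and the mitochondrial counts are near this background. miRNA precursors typical of white blood cells, of which 3 of 4 were in the files, summed to 289, 297 and 252 RPM in CD and to 617, 390 and 442 RPM in HFD, and these too did not overlap between diets. The same list summed to 711 to 913 RPM in the TM4 line, above every sperm library, so it is not particular to white blood cells here. Those typical of red blood cells (3 of 4) summed to 8233, 6749 and 8824 RPM in CD and to 13352, 10406 and 7246 RPM in HFD, which overlap. The part of blood cells in the mt-tRNA values was not tested.

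The other abundant mt-tRNAs overlapped between the diets. The tRF5 of mt-tRNA-Ser-GCT was 452, 569 and 501 RPM in CD and 343, 717 and 641 RPM in HFD (log2 fold change 0.16, SE 0.33, adjusted p = 0.692 by edgeR). Its highest and lowest libraries were both HFD. Reads of mt-tRNA-Val-TAC in the class other were 463, 569 and 482 RPM in CD and 465, 594 and 689 RPM in HFD (log2 fold change 0.21, SE 0.33, edgeR's adjusted p = 0.627). The class other of mt-tRNA-Glu-TTC differed by 0.32 (SE 0.33), that of Met-CAT by 0.34 (SE 0.32) and that of Gly-TCC by -0.13 (SE 0.33) on the log2 scale, with edgeR's adjusted p of 0.456, 0.450 and 0.755. The signs of the first 2 and of the Ser-GCT and Val-TAC values flip with TMM scaling.

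The comparison of CC with Ctrl addressed the effect of AMPK inhibition in TM4 cells. No mt-tRNA fragment was called: 0 of 62 tested fragments, against 0.488% of all 205 tRNA fragments, which is 1 fragment. None had an unadjusted p under 0.05 with edgeR (0 of 62, against 18.5% of all tRNA fragments), DESeq2 gave 2 such fragments and called 0, and 4 of the 66 fragments were below the filter of 10 reads in 2 libraries. CC and Ctrl did not overlap for 15 of the 62, against 52.2% of all tRNA fragments, with 8 higher in CC (42.9% of all) and 7 lower (9.27% of all). The median log2 fold change of tRF5 was -0.60 (16 of 18 negative), that of tRF3 0.18 (14 of 22 positive) and that of other -0.22 (15 of 22 negative), next to 0.23 over all tRNA fragments. Nuclear tRNA fragments had medians of -0.42 for tRF5 (28 of 44 negative), 0.59 for tRF3 (49 of 49 positive) and 0.32 for other (45 of 50 positive), so the signs of tRF5 and tRF3 were shared with nuclear tRNAs. Without CC replicate 1, the median log2 fold change was -0.58 over mt-tRNA fragments and 0.29 over all tRNA fragments. These values rest on the single library CC replicate 2. In every fit that leaves out a TM4 library, the lone library is assumed to vary like the other groups.

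The abundant mt-tRNAs of CC overlapped with Ctrl, whereas the end class shares of all mt-tRNA reads did not. The tRF5 share was 15.6% and 13.6% in Ctrl and 11.5% and 10.9% in CC. The CCA-ended share was 67.7% and 72.9% in Ctrl and 75.7% and 77.5% in CC. Of nuclear tRNA reads, the tRF5 share did not overlap either, and the CCA-ended share did. No test of these shares was made. The tRF3 of mt-tRNA-Val-TAC, nearly all CCA-ended, was 2357 and 2015 RPM in Ctrl and 3022 and 1904 RPM in CC (log2 fold change 0.17, SE 0.49, edgeR's adjusted p = 0.826). The tRF5 of mt-tRNA-Met-CAT was 255 and 166 RPM in Ctrl and 202 and 80.0 RPM in CC (log2 fold change -0.57, SE 0.44, adjusted p = 0.449 by edgeR). With a library left out, its log2 fold change ranged from -1.39 to -0.055. For both fragments the ranges of Ctrl and CC overlapped. Ctrl and CC libraries of the same number deviated together (correlation 0.69 over mt-tRNA fragments), so the overlap also holds the difference between numbers. Within each number the Met-CAT tRF5 was lower in CC, and the Val-TAC tRF3 was higher in replicate 1 and lower in replicate 2.

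**Figure D3:**
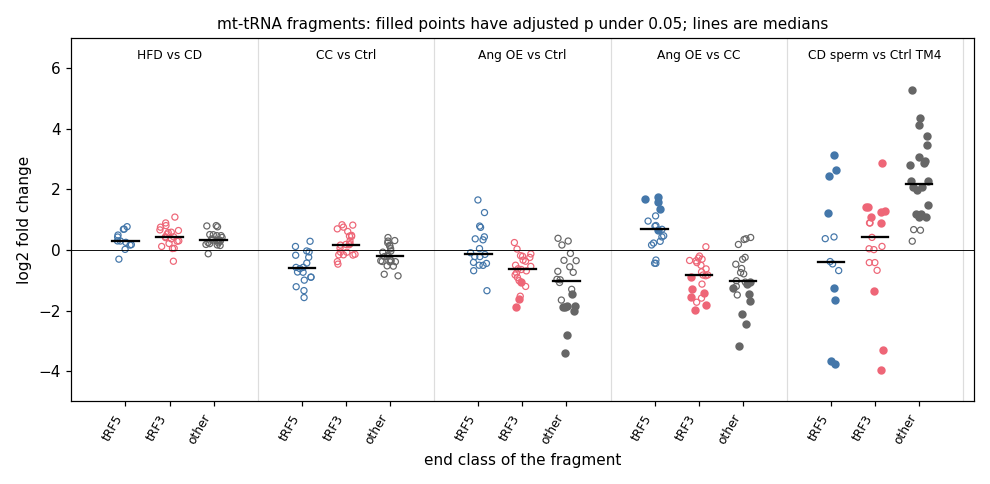
Log2 fold changes of mt-tRNA fragments (y axis) by end class (x axis) in the 5 comparisons, 1 point per tested fragment, filled where edgeR's adjusted p was under 0.05, with black lines at the medians. Filled points number 0 in HFD vs CD and CC vs Ctrl, 11 in Ang OE vs Ctrl, 19 in Ang OE vs CC and 37 in CD sperm vs Ctrl TM4, and with TMM scaling the numbers are 0, 0, 9, 10 and 36.

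In Ang OE cells, some mt-tRNA fragments of the class other and a few tRF3 were called lower, and no tRF5 was. Of the 62 tested fragments, 0 rose and 11 fell in Ang OE against Ctrl, 17.7% called, where 12.7% of all 205 tRNA fragments were called, 3.41% higher and 9.27% lower. The 2 groups did not overlap for 35 of the 62, against 71.2% of all tRNA fragments, with 29 lower in Ang OE (43.4% of all) and 6 higher (27.8% of all). With TMM scaling 2 rose and 7 fell, and each of the 7 was among the 11. With genome-matched reads alone 3 of 50 fell, next to 12 of all 186 tRNA fragments. With ComBat-seq, run with the replicate number as the batch, 2 rose and 19 fell, next to 28 and 55 of all 205 tRNA fragments. When single libraries were dropped, 3 fell without Ctrl replicate 1 and 7 without Ctrl replicate 2, and 5 or 3 fell without the first or the second Ang OE library. The fallen fragments were 8 of 22 in the class other, 3 of 22 tRF3 and 0 of 18 tRF5. Among nuclear tRNA fragments, 0 of 50 in the class other, 8 of 49 tRF3 and 0 of 44 tRF5 fell, so the tRF3 fell in similar proportions in both genomes, and no test compared the classes. The median log2 fold change was -1.03 for other, -0.63 for tRF3 and -0.12 for tRF5, against -0.22 over all tRNA fragments (-0.07 with TMM). Nuclear tRNA fragments had medians of 0.10 for other, -0.65 for tRF3 and 0.63 for tRF5.

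By the strand of origin, 9 of the 39 tested heavy-strand fragments and 2 of the 23 light-strand fragments fell. The 5 tRNAs of the cluster Trp, Ala, Asn, Cys and Tyr had 4 fallen fragments among 14, and the 3 tRNAs next to an rRNA gene (Phe, Val and Leu-TAA) had 2 among 9. No test of these splits was made.

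Of the called fragments, the class other of mt-tRNA-Lys-TTT, which decodes lysine codons, had the largest fall. Its reads of the class other stood at 39.9 and 23.2 RPM in Ctrl, 39.4 and 14.7 RPM in CC, and 3.51 and 2.44 RPM in Ang OE, so both Ang OE libraries were below every other TM4 library. The log2 fold change of Ang OE against Ctrl was -3.41 (SE 0.52, edgeR's adjusted p = 0.00869). Reads of mt-tRNA-Asn-GTT in the class other stood at 13.1 and 8.35 RPM in Ctrl, 10.3 and 6.39 RPM in CC, and 1.76 and 1.3 RPM in Ang OE. They fell by 2.81 on the log2 scale (SE 0.41, edgeR's adjusted p = 0.00869), with the Ang OE libraries again the lowest.

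mt-tRNA-Trp-TCA fell in both classes. Its reads of the class other were 13.8 and 11 RPM in Ctrl, 11.8 and 9.60 RPM in CC, and 3.49 and 3.23 RPM in Ang OE (log2 fold change -1.89, SE 0.30, edgeR's adjusted p = 0.00869). Its tRF3 was 172 and 161 RPM in Ctrl, 176 and 122 RPM in CC, and 86.8 and 73.7 RPM in Ang OE (log2 fold change -1.05, SE 0.27, edgeR's adjusted p = 0.0430). The groups Ctrl and Ang OE did not overlap in either class. The tRF3 call was lost without any single one of the 4 libraries (edgeR's adjusted p from 0.105 to 0.182) and with TMM scaling (0.0706). mt-tRNA-Ser-GCT fell in the class other, from 15.9 and 12.2 RPM in Ctrl to 3.53 and 4.13 RPM in Ang OE (log2 fold change -1.87, SE 0.40, edgeR's adjusted p = 0.0227), with 10.5 and 4.98 RPM in CC. The tRF3 of mt-tRNA-Cys-GCA fell from 8.61 and 5.42 RPM to 2.22 and 1.56 RPM (log2 fold change -1.89, SE 0.49, edgeR's adjusted p = 0.0430), and missed the threshold with TMM scaling (adjusted p = 0.0706). The Ser-GCT and Cys-GCA calls were also lost when Ctrl replicate 1 or either Ang OE library was left out, with edgeR's adjusted p of 0.0547 to 0.133.

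The remaining called fragments were the class other of Asp-GTC, His-GTG, Ile-GAT and Val-TAC, with log2 fold changes from -2.01 to -1.44, and the tRF3 of Phe-GAA with -1.62. Most of the abundant fragments had smaller values and were not called. The tRF3 of mt-tRNA-Val-TAC was 2357 and 2015 RPM in Ctrl and 1805 and 1877 RPM in Ang OE (log2 fold change -0.25, SE 0.49, edgeR's adjusted p = 0.730). The tRF5 of Ser-GCT had a log2 fold change of -0.69 (SE 0.32, edgeR's adjusted p = 0.164), that of Met-CAT -0.41 (SE 0.44, adjusted p = 0.529), and the tRF3 of Glu-TTC -0.19 (SE 0.27, adjusted p = 0.627). The class other of Gly-TCC, at 23.8 and 14.4 RPM in Ctrl and 7.43 and 8.05 RPM in Ang OE, had a log2 fold change of -1.30 (SE 0.40) and missed the threshold (edgeR's adjusted p = 0.0606), but passed it with DESeq2 (adjusted p = 0.0160). The Val-TAC, Met-CAT and Glu-TTC values turn positive when scaled by mt-tRNA reads.

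Most of the loss lay in reads that matched the mature tRNA but not the genome. The annotation counts reads of each class separately by whether they also match the genome. Over all mt-tRNAs, reads of the class other that did not match the genome were at 432 and 243 RPM in Ctrl, 339 and 151 RPM in CC, and 77.7 and 79.1 RPM in Ang OE. Those that matched the genome were at 185 and 148 RPM in Ctrl, 188 and 148 RPM in CC, and 113 and 115 RPM in Ang OE. Both kinds were lower in Ang OE than in any Ctrl library, the first by the larger factor. The largest part of the unmatched reads came from Val-TAC, with 300 and 162 RPM in Ctrl and 57.6 and 63.4 RPM in Ang OE.

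For single mt-tRNAs, Ang OE was below Ctrl without overlap in 19 of 22 for the reads that did not match the genome and in 11 of 22 for those that matched. The same counts were 16 and 19 of the 51 nuclear tRNAs (31.4% and 37.3%). Ang OE was above Ctrl without overlap in 0 and 4 of the 22 mt-tRNAs and in 4 and 22 of the 51 nuclear tRNAs, so matched reads of nuclear tRNAs were higher in more cases than lower. The share of the mt-tRNA class other that matched the genome was 30.02% and 37.8% in Ctrl, 35.7% and 49.6% in CC, 59.3% in both Ang OE libraries and 56.2% to 71.7% in sperm. Reads of the tRF5 class matched the genome in 99.99% to 100% of cases, and CCA-ended reads in 0.693% to 1.62% in TM4 cells and 15.8% to 26.1% in sperm. What the unmatched reads differ by, and where the CCA-ended reads that matched lie in the genome, could not be seen in the files, which hold no read sequences.

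mt-tRNA-Lys-TTT and mt-tRNA-Asn-GTT, which had the largest falls among the called fragments, lost mostly unmatched reads. Unmatched reads of Lys-TTT in the class other were 38.6 and 22.4 RPM in Ctrl and 2.89 and 1.83 RPM in Ang OE, while matched reads were 1.26 and 0.772 RPM in Ctrl and 0.626 and 0.605 RPM in Ang OE. For Asn-GTT the unmatched reads were 12.3 and 7.73 RPM in Ctrl and 0.888 and 0.532 RPM in Ang OE, and the matched reads 0.779 and 0.621 RPM in Ctrl and 0.868 and 0.770 RPM in Ang OE. With genome-matched reads alone, the log2 fold change was -0.72 for Lys-TTT (adjusted p = 0.248 by edgeR) and 0.23 for Asn-GTT (adjusted p = 0.667 by edgeR), so both calls ended. That of Trp-TCA in the class other was -1.34 and just missed the threshold (edgeR's adjusted p = 0.0507). mt-tRNA-Ser-GCT was the opposite case, since nearly all of its reads matched. Its matched reads were 15.5 and 11.8 RPM in Ctrl and 3.53 and 4.05 RPM in Ang OE, and it stayed called with genome-matched reads alone (log2 fold change -1.85, edgeR's adjusted p = 0.0463).

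**Figure D4:**
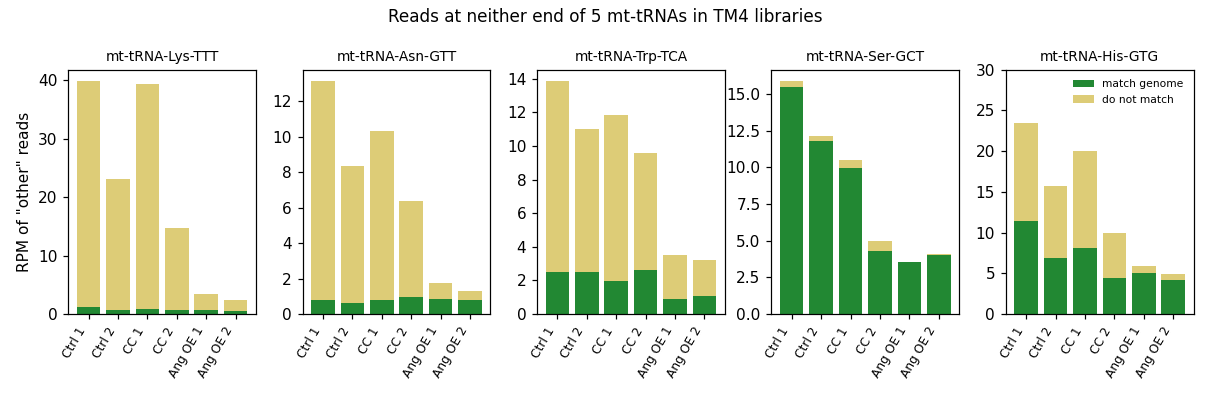
Reads of the class other, assigned to neither end (RPM of clean reads without rRNA, y axis, 1 scale per panel), of 5 mt-tRNAs. They are shown in the 6 TM4 libraries (x axis), split into reads that match the genome (green) and reads that match only the tRNA (yellow). The unmatched part of Lys-TTT goes from 38.6 and 22.4 in Ctrl to 2.89 and 1.83 in Ang OE, whereas Ser-GCT consists almost only of matched reads.

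Other RNAs of the Ang OE libraries moved as well. The miRNA precursors typical of smooth muscle (2 of 3 in the files) summed to 31248 and 29770 RPM in Ctrl and to 61711 and 79792 RPM in Ang OE. Those typical of testis germ cells summed to 591 and 609 RPM and to 1335 and 1195 RPM. The red blood list went the other way, with 806 and 822 RPM in Ctrl and 584 and 547 RPM in Ang OE, and the epithelial and white blood lists overlapped. Mature tRNA reads, the sum of nuclear and mitochondrial ones, numbered 1575331 and 1534573 in Ctrl and 1948252 and 2847837 in Ang OE. The part of these in the mt-tRNA result was not tested. Scaled by mature tRNA reads instead, 28 of 62 mt-tRNA fragments were lower in Ang OE and 0 higher, next to 90 and 3 of all 205 tRNA fragments. The mt-tRNA share of mature tRNA reads was 12.3% and 12.0% in Ctrl and 6.48% and 5.09% in Ang OE.

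Against CC instead of Ctrl, with the same Ang OE libraries, 5 mt-tRNA fragments rose and 14 fell, 30.6% called, where 43.9% of all tRNA fragments were called, 11.7% higher and 32.2% lower. With TMM scaling 5 rose and 5 fell. The numbers that rose and fell were 3 and 7 without CC replicate 1, and 1 and 16 without CC replicate 2. They were 0 and 6 or 1 and 6 when the first or the second Ang OE library was dropped. The risen fragments were all tRF5 (5 of 18), and the fallen ones 6 of 22 tRF3 and 8 of 22 other. Among nuclear tRNA fragments, 16 of 44 tRF5 rose, and 35 of 49 tRF3 and 14 of 50 of the class other fell, so none of these shares was larger for mt-tRNAs except that of other. The tRF5 of mt-tRNA-Ser-TGA was 43.7 and 53.1 RPM in CC and 77.2 and 77.3 RPM in Ang OE, with 45.1 and 44.4 RPM in Ctrl. Its log2 fold change of Ang OE against CC was 0.67 (SE 0.23, edgeR's adjusted p = 0.0437), and its call was lost without CC replicate 1 (adjusted p = 0.0913) and without either Ang OE library (adjusted p = 0.159 and 0.169). The other risen tRF5, of Phe-GAA, Pro-TGG, Lys-TTT and Trp-TCA, each averaged under 100 reads per library.

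Among the fallen fragments that averaged at least 100 reads, those with the largest changes were the class other of Lys-TTT (log2 fold change -3.19, SE 0.51), Asn-GTT (-2.45, SE 0.40), Trp-TCA (-1.67, SE 0.30) and His-GTG (-1.46, SE 0.39) and the tRF3 of Phe-GAA (-1.55, SE 0.42), with edgeR's adjusted p from 0.00574 to 0.0213. With genome-matched reads alone, the calls of Lys-TTT (-0.49, adjusted p = 0.385), Asn-GTT (-0.085, adjusted p = 0.853) and His-GTG (-0.45, adjusted p = 0.411) in the class other ended, and that of Trp-TCA did not (-1.22, adjusted p = 0.0292 by edgeR). The class other of His-GTG was 19.995 and 9.93 RPM in CC and 5.95 and 4.95 RPM in Ang OE. Phe-GAA tRF3 was 4.23 and 3.32 RPM in CC and 1.72 and 0.862 RPM in Ang OE. In both, the groups did not overlap. Both calls were lost with TMM scaling (edgeR's adjusted p of 0.109 and 0.110), without CC replicate 1 (0.0651 and 0.0512) and without Ang OE replicate 2 (0.0842 and 0.166), and that of His-GTG also without Ang OE replicate 1 (0.0525). Of the abundant fragments, the class other of Gly-TCC (-1.26, SE 0.40) and the tRF3 of Trp-TCA (-0.89, SE 0.27) fell as well (edgeR's adjusted p of 0.0390 and 0.0331), and the tRF3 of Val-TAC was not called (-0.42, SE 0.49, adjusted p = 0.509). The Gly-TCC and Trp-TCA calls were lost with TMM scaling (edgeR's adjusted p of 0.162 and 0.245) and without CC replicate 1 or either Ang OE library (0.0826 to 0.175).

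The comparison of CD sperm with Ctrl TM4 cells sets 2 unlike sources side by side. Here 30 mt-tRNA fragments were higher in sperm and 7 lower, 68.5% of the 54 tested, where 79.9% of all 194 tRNA fragments were called, 55.2% higher and 24.7% lower. The split depends on the scaling, with 18 higher and 18 lower under TMM and 4 higher and 27 lower when scaled by mature tRNA reads. The median log2 fold change of all tRNA fragments went from 1.11 to 0.05 under TMM and to -1.18 with mature tRNA reads. The edgeR fit assumed the same spread for every fragment in this comparison, an assumption that the calls, the p-values and the SE all carry. In the fit of HFD against CD the spread was also mostly shared between fragments (median prior degrees of freedom 143, residual 4).

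By class, 19 of 22 fragments of other were higher in sperm and 0 lower (median log2 fold change 2.17). Of the tRF5 4 were higher and 4 lower among 13, and of the tRF3 7 were higher and 3 lower among 19. Among nuclear tRNA fragments, 35 of 50 in the class other (median log2 fold change 1.56), 33 of 41 tRF5 and 9 of 49 tRF3 were higher in sperm, and 34 of 49 tRF3 were lower, so most fragments of other were higher in sperm for both kinds of tRNA. mt-tRNA-Leu-TAG had the largest difference, in the class other, with 68.5, 67.4 and 39.8 RPM in CD sperm and 1.92 and 1.14 RPM in Ctrl (log2 fold change 5.26, SE 0.42). It was followed in the class other by Pro-TGG (4.34, SE 0.42), Gln-TTG (4.13, SE 0.40), Ala-TGC (3.75, SE 0.41) and Gly-TCC (3.47, SE 0.39). Gly-TCC stood at 238, 196 and 198 RPM in CD sperm and at 23.8 and 14.4 RPM in Ctrl. These 5 kept their direction under each alternative scaling. Gln, Ala and Pro are light-strand tRNAs, and Gly and Leu-TAG are heavy-strand tRNAs.

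The fragments lower in sperm were led by the tRF3 of mt-tRNA-Val-TAC, with 128, 145 and 150 RPM in CD sperm and 2357 and 2015 RPM in Ctrl (log2 fold change -3.95, SE 0.39). Without the CCA-ended reads the direction turned, with a value of 1.35 for 3′ ends without CCA. It was 1.93 with genome-matched reads alone, which still hold a part of the CCA-ended reads, over all mt-tRNAs a larger part in sperm than in TM4 cells. The tRF5 of Ile-GAT stood at 0.665, 0.506 and 0.758 RPM in CD sperm and at 11.5 and 6.21 RPM in Ctrl (log2 fold change -3.77, SE 0.40). The tRF5 of Val-TAC (-3.66, SE 0.43), the tRF3 of Asn-GTT (-3.30, SE 0.37) and the tRF5 of Tyr-GTA (-1.66, SE 0.38) were also lower, the last not without Ctrl replicate 1 (-0.84, edgeR's adjusted p = 0.0601).

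Among the abundant mt-tRNAs, the tRF5 of Ser-GCT was higher in sperm (log2 fold change 1.21, SE 0.36), with 452, 569 and 501 RPM against 255 and 184 RPM, as was the tRF3 of Glu-TTC (1.42, SE 0.35), and both turn negative when scaled by mature tRNA reads. Without Ctrl replicate 2 the Ser-GCT value was 0.99, with edgeR's adjusted p of 0.0823. The tRF5 of Met-CAT (-1.27, SE 0.33) and the tRF3 of Trp-TCA (-1.35, SE 0.33) were lower in sperm, and the latter turns positive without CCA-ended reads.

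The 2 mitochondrial rRNAs form the cores of the small (12S) and the large (16S) subunit of the mitochondrial ribosome. In the rRNA database of the annotation, reads of 16S exceeded those of 12S in every library, far beyond the difference in gene length. The files hold a further 30274 to 47263 reads per sperm library and 3352 to 8289 per TM4 library under an Ensembl class Mt_rRNA, which names neither rRNA. These are more reads than 12S has, so every level of 12S and every ratio of 12S to 16S given here covers the rRNA database alone and could differ if they were added. 12S rRNA stood at 106, 102 and 63.1 RPM of clean reads in CD and 56.3, 109 and 134 RPM in HFD, and 16S rRNA at 4247, 4825 and 4870 RPM in CD and 5097, 4619 and 5459 RPM in HFD. Per nt of gene, 16S reads were 24.2 to 54.6 times as many as 12S reads in sperm and 246 to 528 times as many in TM4 cells. The diets overlapped for both rRNAs. The log2 fold change of HFD against CD was 0.14 for 12S (SE 0.45, edgeR's adjusted p = 0.755) and 0.12 for 16S (SE 0.20, adjusted p = 0.720), where 0% of the 8 rRNA subclasses were called. The ratio of 12S to 16S, which needs no scaling, was 24.9, 21.2 and 12.95 reads of 12S per 1000 reads of 16S in CD and 11.1, 23.6 and 24.6 in HFD. The log2 ratio differed by -0.03 (exact 2-sided permutation p = 0.8).

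In TM4 cells few reads were assigned to 12S. It numbered 116 and 112 reads in Ctrl, 99 and 89 in CC, and 51 and 50 in Ang OE, which is 2.14 and 1.75 RPM, 1.75 and 1.73 RPM, and 0.968 and 0.859 RPM. Ang OE lay below both other groups without overlap. 12S fell in Ang OE against Ctrl (log2 fold change -1.09, SE 0.14, edgeR's adjusted p = 0.00314), where 37.5% of the 8 rRNA subclasses were called. It also fell against CC (log2 fold change -0.93, SE 0.14, edgeR's adjusted p = 0.00342), where 75% were called. Both SE are smaller than counting error alone gives for so few reads, so these p-values may be too small. Over the alternatives the values ranged from -1.23 to -0.87 and from -1.02 to -0.54, with edgeR's adjusted p of at most 0.0282 and 0.0369.

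16S rRNA was 875 and 884 RPM in Ctrl, 1121 and 883 RPM in CC, and 759 and 751 RPM in Ang OE. The log2 fold change of Ang OE against Ctrl was -0.22 (SE 0.14, edgeR's adjusted p = 0.269), although both Ang OE libraries were the lowest. Against CC it fell by 0.41 on the log2 scale (SE 0.14, edgeR's adjusted p = 0.0430), a call that ended when either Ang OE library was left out and when scaled by all rRNA reads. CC against Ctrl gave -0.16 for 12S (SE 0.13) and 0.19 for 16S (SE 0.13), both with edgeR's adjusted p of 0.334, where 50% of the 8 rRNA subclasses were called. There were 2.45 and 1.98 reads of 12S per 1000 reads of 16S in Ctrl, 1.56 and 1.96 in CC, and 1.28 and 1.14 in Ang OE, so Ang OE lay below the others in this ratio too, which rests on few 12S reads and leaves out the Mt_rRNA class.

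Between CD sperm and Ctrl TM4 cells, 12S was higher in sperm by 5.54 (SE 0.48) and 16S by 2.40 (SE 0.26) on the log2 scale, where 87.5% of the rRNA subclasses were called. The edgeR adjusted p was 1.65e-09 and 2.94e-08. Cytosolic 18S rRNA, for comparison, differed by 4.41 (SE 0.39) on the same scale, more than 16S and less than 12S.

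**Figure D5:**
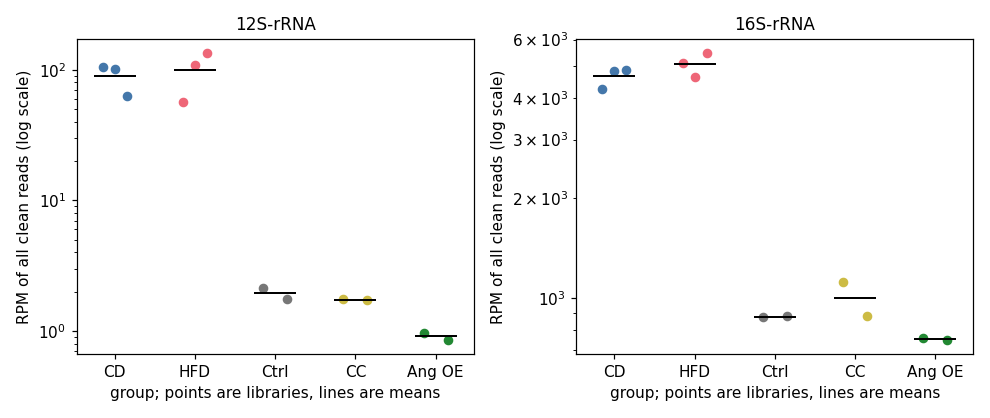
Reads of 12S (left) and 16S rRNA (right) in RPM of all clean reads (y axes, log scales) by group (x axis), with a point per library and a line at the mean. For 12S the Ang OE libraries are at 0.968 and 0.859, below Ctrl and CC, and the sperm libraries are at 56.3 to 134.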

How the data were processed

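Small RNA was sequenced from 6 sperm and 6 TM4 libraries. The authors trimmed reads (the processing notes name Trimmomatic 0.40 and FastQC 0.12.0 and the build mm10), kept 15 to 45 nt and annotated them with SPORTS1.1, which matched each read in turn to rRNA, nuclear tRNA, mitochondrial tRNA and then the remaining small RNA databases, so a read of an mt-tRNA is one that matched no rRNA or nuclear tRNA. The deposited tables give estimated counts for each subclass, not normalized, in which a read with several matches was divided. Sequences and coordinates came from GRCm39 with its GENCODE annotation, not from mm10.

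Genome-matched and unmatched reads were added, and the class other is the tRNA's reads minus both ends. All mature tRNA fragments that reached 10 reads in 3 sperm or 2 TM4 libraries entered a model in edgeR 4.0.16 under R 4.3.3 (quasi-likelihood, rounded counts, library size the clean reads without rRNA, no further scaling, TM4 groups in 1 model, Benjamini-Hochberg over the whole table, called at an adjusted p under 0.05). rRNA subclasses were tested alike, scaled by all clean reads. The SE is the absolute log2 fold change divided by the root of F. Shares, totals and ratios of sperm were compared by exact 2-sided permutation. TM4 shares had no test, as 2 against 2 libraries cannot go below 0.333. Named were both mt-rRNAs, the 5 mt-tRNAs of highest mean RPM in sperm and in TM4 cells by their leading class, and in each comparison up to 5 called fragments per direction with the largest changes, no overlap and at least 100 reads on average. Other mt-tRNAs named for their shares or counts were chosen after their values were seen. The members and lists were chosen with earlier results of these data known. The fits were tested on simulated data. Alternatives were DESeq2 1.42.0, TMM, other library sizes and filters, genome-matched reads, CCA ends as a class, a replicate block, ComBat-seq (sva 3.50.0) and each library left out. Replicates differed beyond counting noise in every group (chi-square per degree of freedom 13.1 to 85.8), which does not exclude libraries made from the same RNA. Figures were drawn with matplotlib 3.10.9.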

Additional observations from a re-analysis of the deposited data

Results flagged for a closer look

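Reads that the annotation assigns to mitochondrial RNA outside the tRNA and rRNA databases were not used in the comparisons. Reads of the Ensembl class Mt_rRNA numbered 3352 in the library with the fewest and 47263 in the one with the most, above the 3 reads that a count of 0 allows. They amounted to 729 to 1315 reads per 1000000 clean reads in sperm and 63.6 to 153 in TM4 cells, with the lowest values, 63.6 and 67.0, in Ang OE. Reads of the Rfam class mt_DNA numbered 24 in the library with the fewest and 61 in the one with the most. These were flagged because they are a signal in data that the report leaves out. No group had the 4 libraries that the test for outlying samples needs.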

How the results depend on the processing

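Of 1122 recomputed values, 676 of single fragments and 260 of summaries kept their direction and side of the threshold. No call separated the diets, and leaving out 1 library turned small differences: the share difference (percentage points) ranged from -3.35 to 0.56 for tRF5, from -1.03 to 0.069 for 3′ ends without CCA, from -0.86 to 1.56 for CCA ends and from -0.11 to 3.23 for other, and the log2 ratio of 12S to 16S from -0.31 to 0.34. Without CD replicate 2, 2 of 54 mt-tRNA fragments were called higher, next to 25 of all 196 tRNA fragments. 12S turned to -0.18 and 16S to -0.32 with all rRNA reads as library size, and 12S ranged from -0.13 to 0.43 with a library left out. In CC against Ctrl the median log2 fold change of mt-tRNA fragments was -0.58 without CC replicate 1. There 16S ranged from 0.0055 to 0.35 with a library left out.

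In Ang OE against Ctrl the calls higher and lower were 2 and 7 with TMM, 2 and 7 with mt-tRNA reads as library size and 2 and 19 with ComBat-seq. Higher calls were 1 with DESeq2, 2 with its own size factors, 1 with at least 100 reads and 2 with only the compared groups. Lower calls were 3 with genome-matched reads, 28 with mature tRNA reads and 3 to 7 with a library left out, and 16S was 0.0017 with all rRNA reads. In Ang OE against CC lower calls were 5 with TMM and 8 under size factors of DESeq2, and higher calls 2 with DESeq2, 3 with no filter and 1 with at least 100 reads. Genome-matched reads gave 2 higher and 4 lower, mature tRNA reads 0 and 29, mt-tRNA reads 8 and 6, and a library left out 0 to 3 and 6 to 16 (the ones that moved the lower count, 6 to 7). 16S was -0.012 with all rRNA reads and -0.57 to -0.23 with a library left out (-0.42 and -0.40 for the Ang OE libraries). In CD sperm against Ctrl the calls were 18 and 18 with TMM, 17 and 17 under size factors of DESeq2 and 4 and 27 with mature tRNA reads, and the lower calls 13 with no filter, 4 with at least 100 reads, 4 with genome-matched reads and 11 with CCA ends as a class.

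Sperm libraries that share a replicate number did not deviate together in each pair (correlations of -0.034, 0.14 and 0.15). Those of Ctrl and CC did (0.77 over all tRNA fragments, 0.69 over mt-tRNA fragments), those of Ctrl and Ang OE (-0.072) and of CC and Ang OE (0.0039) did not. With 2 libraries a group each comparison yields 1 such value, and no label ties a number to a culture or preparation, so the pairing was not used in the main fits. The study's methods adjust the cell data for preparation batches, which the labels do not name. With the replicate block the calls higher and lower were 0 and 0 for HFD and for CC, 1 and 10 for Ang OE against Ctrl and 2 and 15 for Ang OE against CC. CD sperm and Ctrl have no pairing.

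Single fragments that changed sign did so mostly with small values. In HFD against CD, the values under TMM and under size factors of DESeq2 were -0.11 and -0.080 for Glu-TTC, -0.10 and -0.065 for Met-CAT, -0.27 and -0.24 for Ser-GCT, and -0.23 and -0.20 for Val-TAC. mt-tRNA reads gave -0.088 for Ser-GCT and -0.016 for Val-TAC, and a library left out -0.28 to 0.049 for Gly-TCC and -0.044 to 0.42 for Ser-GCT. In CC against Ctrl, those 2 scalings gave -0.11 and -0.043 for Glu-TTC and -0.091 and -0.032 for Val-TAC, CCA ends as a class -0.40 for Glu-TTC and 0.48 for Trp-TCA, and genome-matched reads 0.18 for Trp-TCA. A library left out gave -0.045 to 0.39 for Glu-TTC, -0.66 to 0.39 for Gly-TCC, -0.58 to 0.028 for Ser-GCT, -0.45 to 0.075 for Trp-TCA and -0.20 to 0.47 for Val-TAC. In Ang OE against Ctrl, Asn-GTT was 0.23 with genome-matched reads, mt-tRNA reads gave 0.24 for Glu-TTC, 0.021 for Met-CAT and 0.16 for Val-TAC, and Glu-TTC was 0.026 with the size factors of DESeq2 and -0.41 to 0.041 with a library left out. In Ang OE against CC, Glu-TTC was 0.10 with TMM, 0.068 with the size factors of DESeq2 and 0.063 with mt-tRNA reads, Val-TAC 0.0036 with TMM and 0.019 with mt-tRNA reads, and Met-CAT -0.39 with mature tRNA reads and -0.36 to 0.98 with a library left out. In CD sperm against Ctrl, mature tRNA reads gave -0.85 for Glu-TTC and -1.05 for Ser-GCT, genome-matched reads 1.03 for Trp-TCA and 1.93 for Val-TAC, and CCA ends as a class 0.13 and 1.35. The causes were not tested. The library sizes by mature tRNA and by mt-tRNA reads were chosen after seeing the data. Fragments under about 100 reads, among them 12S in TM4 cells, are limited by counting error.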
